A study of Mus musculus with 14 samples.

Results

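The activator protein 1 (AP-1) genes described here are Fos, Fosb, Fosl2, Jun, Junb and Atf3, taken by symbol from the values of old hematopoietic stem cells (oHSCs) that received guide RNAs against Clu (sgClu) or control guides (sgCtrl). All 6 were among the 583 genes listed for this comparison. The 7 libraries, 4 sgClu and 3 sgCtrl, came from Cas9-expressing oHSCs of aged Rosa26-Cas9 knock-in donors of either sex, in which every cell carries the nuclease. The cells were infected with lentivirus carrying the guides and an mCherry marker and transplanted into lethally irradiated CD45.1 recipients, from whose bone marrow donor-derived HSCs were sorted months later. Both groups thus shared the age, the Cas9 allele, the infection and the transplantation, and differed in the guides. Lentiviruses for 3 guides against Clu, which encodes the chaperone clusterin, were packaged together, so the sgClu cells were not 1 clone and may carry different edits. Clu itself was not among the 583 genes, so the knockout was not checked here. The labels describe the cells as hematopoietic stem and progenitor cells, and the study's methods speak of biological replicates in general without saying which of these libraries came from separate donors or recipients. The p-values measure the spread between these libraries.

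AP-1 is a dimer of basic leucine zipper proteins that binds DNA and activates or represses nearby genes. FOS proteins do not pair with themselves and need a JUN partner, JUN proteins pair with FOS proteins or each other, and ATF3 pairs with JUN and CREB-related proteins. Most of these genes are immediate early genes. Their short-lived mRNAs rise within minutes of growth factors, cytokines or stress, through MAP kinases and the factors SRF, TCF and CREB. In blood stem cells they are known to respond to activation and also to the isolation of the cells.

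The 3 guides are shown because they define the sgClu group. Matched to transcript Clu-201 (GENCODE M21, GRCm38), each lay in coding sequence of 1 of its 9 exons and was followed by a PAM of the Cas9 type, given in capitals. Clu_sgRNA_1 lay in exon 3 (chr14:65973360-65973379, plus strand), Clu_sgRNA_2 in exon 4 (chr14:65974896-65974915, plus strand) and Clu_sgRNA_3 in exon 5 (chr14:65975875-65975894, minus strand).
Clu_sgRNA_1: gagattcagaacgccgtccaGGG
Clu_sgRNA_2: agtgtgtaacgagaccatgaTGG
Clu_sgRNA_3: aacatgttgtggaagctcggAGG

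The 6 members lay on 6 chromosomes, so none shared a promoter. Their positions in GRCm38 were chr12:85473890-85477273 (Fos, plus strand), chr7:19302696-19310051 (Fosb, minus strand), chr5:32135801-32157842 (Fosl2, plus strand), chr4:95049034-95052222 (Jun, minus strand), chr8:84974484-84978718 (Junb, minus strand) and chr1:191170296-191218039 (Atf3, minus strand). Exons of Jun overlapped those of the opposite-strand gene Junos, and exons of Junb those of Prdx2. As the library kit does not keep strand, reads of these partners cannot be told apart there. No member shared a 50-base word of its longest transcript with another gene.

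All 6 members were lower in sgClu than in sgCtrl. Their RefSeq promoters (GRCm38.p6) were searched on both strands from 250 bases before to 50 bases after the start. The stretch from 110 bases before to 25 bases after the start is printed 5′ to 3′ for each, with TGACG, TGACATCA and TATAAA in capitals. TGACG is the core of the cyclic AMP response element, to which ATF and CREB proteins bind, and was added after the promoters had been seen. In Atf3 it lay on the other strand and reads CGTCA.
Fos: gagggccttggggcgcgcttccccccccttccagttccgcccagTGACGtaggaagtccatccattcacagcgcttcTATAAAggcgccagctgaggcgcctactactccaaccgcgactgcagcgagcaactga
Fosb: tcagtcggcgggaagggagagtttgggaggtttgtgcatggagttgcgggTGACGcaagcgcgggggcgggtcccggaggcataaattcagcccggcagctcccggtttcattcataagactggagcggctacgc
Fosl2: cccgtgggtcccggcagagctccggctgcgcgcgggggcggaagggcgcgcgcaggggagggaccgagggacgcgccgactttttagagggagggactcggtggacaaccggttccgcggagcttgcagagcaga
Jun: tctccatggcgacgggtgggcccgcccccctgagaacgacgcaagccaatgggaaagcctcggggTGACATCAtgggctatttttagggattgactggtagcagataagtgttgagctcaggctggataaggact
Junb: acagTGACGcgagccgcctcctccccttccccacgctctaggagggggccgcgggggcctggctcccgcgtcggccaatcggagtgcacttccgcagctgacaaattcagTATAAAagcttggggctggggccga
Atf3: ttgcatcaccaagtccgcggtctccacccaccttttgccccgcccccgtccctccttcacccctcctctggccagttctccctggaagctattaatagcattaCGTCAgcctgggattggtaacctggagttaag

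The printed stretches are chr12:85473780-85473914 for Fos, chr7:19310021-19310155 for Fosb, chr5:32136362-32136496 for Fosl2, chr4:95052198-95052332 for Jun, chr8:84978724-84978858 for Junb and chr1:191183309-191183443 for Atf3. TGACG was found in the windows of 4 members, Fos, Fosb, Junb and Atf3, against 20.8% of all 32851 windows. TGACATCA, the site through which Jun is known to bind AP-1 and ATF proteins, was found in Jun alone among the 6 and in 3.62% of all windows. TATAAA, the core of the TATA box, was found at -33 in Fos and at 1 in Junb, counted from the annotated start, and in 13.6% of all windows. The NF-kB site was found outside the printed stretches in Fos, Fosb and Fosl2 and in 4.51% of all windows. In Fosl2 it matched both strands at overlapping positions. TGANTCA, the classical AP-1 site, was found in no member and in 7.81% of all windows, the full element TGACGTCA in none and 1.79%, and the CArG box in none and 1.63%. TGACG is contained in TGACGTCA. In the window searched for each member, Fosl2 alone had none of the capital motifs. The annotated extents of Fosl2 and Atf3 reach further upstream than their windows, and the sequence there was not searched. These matches describe letters in a window, and no match says only that the letters are not there.

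The values were taken as FPKM, the fragments counted on a gene divided by its transcript length and by the fragments mapped in the library. As they are scaled for length, levels can be set side by side between genes. In every one of the 7 libraries the members had the same order, Fos highest, then Junb, Jun, Fosb, Atf3 and Fosl2. Within each group, the ranges of neighbours in this order did not overlap. The order of AP-1 levels was therefore alike with and without the Clu guides, while each level was lower with them.

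Fos encodes c-FOS, the founding FOS subunit. Fos stood at 332.0, 288.5 and 261.0 FPKM in sgCtrl replicates 1 to 3 and at 122.2, 153.9, 149.8 and 182.6 FPKM in sgClu replicates 1 to 4. The groups did not overlap, and sgClu replicate 4 came nearest to the controls. The means were 152.1 ± 24.7 FPKM (SD, n = 4) with the Clu guides and 293.8 ± 35.8 FPKM (SD, n = 3) without them. The sgClu mean was 51.8% of the sgCtrl mean. In bulk RNA, fewer cells with high levels and less RNA in each cell cannot be told apart.

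Fosb encodes FOSB, a second FOS subunit that is likewise induced by stimuli. Fosb stood at 41.5, 34.6 and 48.4 FPKM in sgCtrl and at 23.7, 16.8, 17.8 and 23.5 FPKM in sgClu. No library of 1 group reached the range of the other, with replicates 1 and 4 the higher of the sgClu libraries. The means were 20.4 ± 3.66 FPKM (SD, n = 4) and 41.5 ± 6.90 FPKM (SD, n = 3), so that sgClu was at 49.3% of sgCtrl.

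Fosl2 encodes FRA-2, a FOS subunit without the strong activation domain of c-FOS. Fosl2 stood at 10.3, 9.89 and 10.6 FPKM in sgCtrl and at 3.08, 2.0, 1.56 and 2.495 FPKM in sgClu. The 3 control libraries were close together and every sgClu library was far below them. Even the lowest sgCtrl library was 3.21 times the highest sgClu library. The means were 2.28 ± 0.652 FPKM (SD, n = 4) and 10.3 ± 0.359 FPKM (SD, n = 3), and sgClu was at 22.2% of sgCtrl.

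Jun encodes c-JUN, the JUN subunit that activates most strongly and can bind DNA as a homodimer. Jun stood at 71.4, 59.8 and 60.4 FPKM in sgCtrl and at 31.3, 43.3, 41.2 and 41.5 FPKM in sgClu. The groups did not overlap, and sgClu replicate 1 was the lowest library. The means were 39.3 ± 5.44 FPKM (SD, n = 4) and 63.9 ± 6.50 FPKM (SD, n = 3). At 61.6% of sgCtrl, Jun kept the highest share of its control level among the 6.

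Junb encodes JUNB, a JUN subunit known to restrain growth of hematopoietic stem cells and the myeloid lineage in mice. Junb stood at 215.7, 159.2 and 133.5 FPKM in sgCtrl and at 61.8, 107.8, 82.5 and 87.9 FPKM in sgClu. The lowest sgCtrl library, replicate 3, and the highest sgClu library, replicate 2, were 1.24-fold apart. The means were 85.0 ± 18.9 FPKM (SD, n = 4) and 169.5 ± 42.0 FPKM (SD, n = 3), with sgClu at 50.2% of sgCtrl.

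Atf3 encodes a stress-induced factor that often represses its targets. Atf3 stood at 31.7, 17.8 and 12.1 FPKM in sgCtrl and at 7.07, 11.2, 10.7 and 7.33 FPKM in sgClu. The control libraries differed widely, and the lowest of them was only 1.08 times the highest sgClu library. The means were 9.08 ± 2.19 FPKM (SD, n = 4) and 20.6 ± 10.1 FPKM (SD, n = 3), with sgClu at 44.2% of sgCtrl. Without sgCtrl replicate 1, which lay far above the other controls, its log2 fold change was -0.67 in place of -1.02.

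**Figure D1:**
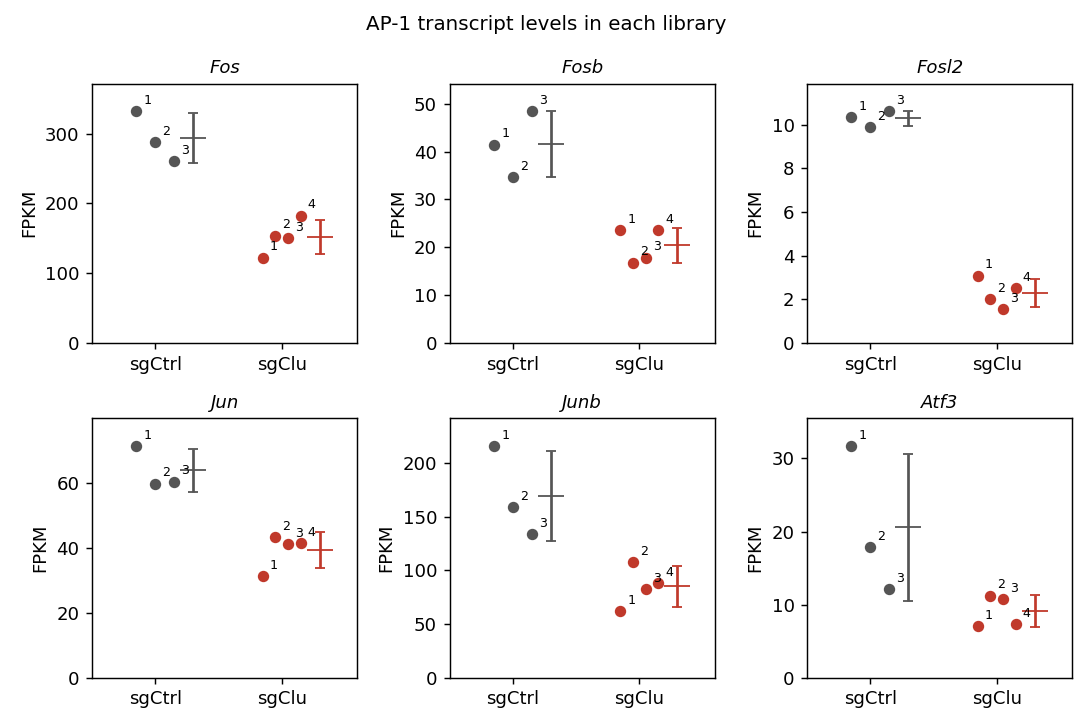
FPKM (vertical axes, from 0) of the 6 AP-1 genes in the 3 sgCtrl and 4 sgClu libraries, each point a library marked with its replicate number, with the group mean and SD beside the points. In every panel all sgClu points lie below all sgCtrl points, and the ratio of the lowest sgCtrl to the highest sgClu library was largest for Fosl2, at 3.21, and smallest for Atf3, at 1.08.

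All 6 members fell past both limits used by the study, p under 0.05 and an absolute log2 fold change over 0.5, as tested with limma on log2(FPKM + 1). Of the 583 listed genes 292 fell past them, or 50.1%. The listed genes are a part of those called by the authors on these same libraries, so neither the share nor the p-values are independent evidence of a change. Of these genes 2 were listed at 0 in every library. The change of Fosl2 was -1.80 on the log2 scale (SE 0.17, 95% interval -2.20 to -1.41, adjusted p = 0.0013 by limma). It ranked 7 of 583 from the most negative value, and 2 of 583 by p. The other 5 had log2 fold changes of -1.02 (SE 0.31) for Atf3, -0.99 (SE 0.18) for Fosb, -0.99 (SE 0.23) for Junb, -0.95 (SE 0.17) for Fos and -0.69 (SE 0.15) for Jun, with limma adjusted p-values of 0.023, 0.0052, 0.0104, 0.0045 and 0.0094. With adjusted p-values in the limits, all 6 still passed, beside 48.2% of the listed genes. The 4 sgClu libraries were all lower than the 3 sgCtrl libraries for 6 of 6 members and for 52.5% of the listed genes. The exact two-sided permutation test over 35 assignments of the libraries gave p = 0.0571 for each member, the smallest that doubling the smaller tail allows here. Counted by the size of the difference, the share of assignments was 0.0286 for each, which is 1 of 35.

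The fall has to be read against that of the listed genes as a whole, whose median log2 fold change was -0.52. The log2 fold change of Fosl2 minus this median was -1.28. The same difference was -0.50 for Atf3, -0.47 for Fosb, -0.46 for Junb, -0.43 for Fos and -0.17 for Jun. These differences depend on the 1 added to each FPKM before the log. With 0.1 added instead, the median over all listed genes was -0.73. Jun, at -0.70, was then not below this median. The others were at -0.96 for Fos, -0.99 for Junb, -1.02 for Fosb, -1.09 for Atf3 and -2.16 for Fosl2. Rescaling each library by the median of its ratios over the listed genes moved their median to -0.09, turned the split of calls from 292 lower and 90 higher to 59 lower and 130 higher, and left 1 member, Fosl2, past the limits beside 10.1% of the listed genes. All 6 fold changes stayed negative, from -0.07 for Jun to -1.28 for Fosl2. A scaling over genes that were selected for change, more of them lower than higher, takes away a shift that they share, whatever its source. Fosl2 kept its call in each of the 3 scalings run, and the other 5 lost theirs. Fosl2 was not alone in this among the listed genes. Of the genes described below, Ddit3, Tnfaip3, Bhlhe40, Nr4a1, Nr4a3, Per1, Plaur, Vegfa, Cdkn1a and Hbegf kept theirs too.

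Of the listed markers of other cell types and of stress, Ly6c2, Hspa1a and Hspa1b did not overlap between the groups, and the others did. Among all listed genes, 52.5% had every sgClu library below every sgCtrl library. Of the neutrophil and granulocyte progenitor markers 2 of 15 were listed, S100a8 and S100a9, with sums of 176.8 and 175.4 FPKM in sgCtrl replicates 1 and 2, 16.1 FPKM in sgCtrl replicate 3, and 8.42 to 51.8 FPKM in sgClu. The sum in sgCtrl replicate 3 lay within the sgClu range. All 6 AP-1 genes were above every sgClu library there, as were at least 52.5% of the listed genes. Without sgCtrl replicates 1 and 2, an alternative chosen after seeing the data that leaves 1 control assumed to vary like the sgClu libraries, 4 members fell past the limits beside 36.5% of the listed genes. Junb was then at -0.67 (limma adjusted p = 0.14) and Atf3 at -0.41 (limma adjusted p = 0.29), while Fosl2 was at -1.84. Of the mast cell and basophil markers 2 of 9 were listed, Tpsb2 and Mcpt4, at 0 in all sgClu libraries and between 0 and 42.5 FPKM in sum in sgCtrl, highest in replicate 3. Of the monocyte and macrophage markers 3 of 13 were listed, Cd14, Ly6c2 and C1qb, with sums of 245.00 to 337.26 FPKM in sgCtrl and 110.02 to 179.66 FPKM in sgClu, made up mostly of Ly6c2. Ly6c2 fell (log2 fold change -1.06) with no overlap, and Cd14 fell (-1.60) with overlap, from 7.36 FPKM in the lowest sgCtrl library to 7.39 FPKM in the highest sgClu library. C1qb, a complement gene of macrophages, rose past the limits (0.82, limma adjusted p = 0.062), from 0 in all sgCtrl libraries to at most 2.02 FPKM in sgClu. Of the 18 alternatives given below, Cd14 lost its call in 6, such as without sgCtrl replicate 1 (-1.31), and Ly6c2 in 3. C1qb lost its call in 10. Among these were the fits without any 1 of the sgCtrl libraries (0.82), without sgClu replicate 2 (0.68) or without sgClu replicate 4 (0.56). Erythroid, megakaryocyte, B cell, and T and NK cell markers were not among the listed genes. Of the heat shock and isolation stress genes, Hspa1a and Hspa1b were listed (2 of 17), with sums of 3.09 to 4.12 FPKM in sgCtrl and 0.320 to 1.15 FPKM in sgClu that did not overlap. The part of these neutrophil, mast cell, monocyte and heat shock genes in the AP-1 result was not tested. Of the HSC markers, 2 of 16 were listed, and both overlapped between the groups. Procr, the EPCR receptor of HSCs, was at 10.8 to 22.5 FPKM in sgCtrl and 4.95 to 11.7 FPKM in sgClu and fell past the limits (log2 fold change -0.76, limma adjusted p = 0.058). It lost this call in 13 of the 18 alternatives, such as without sgCtrl replicate 1 (-0.49) or 2 (-0.79) and without sgClu replicate 1 (-0.53) or 2 (-0.73). Fgd5 did not pass and was at 0.312 to 2.48 FPKM and 0.193 to 0.519 FPKM.

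**Figure D2:**
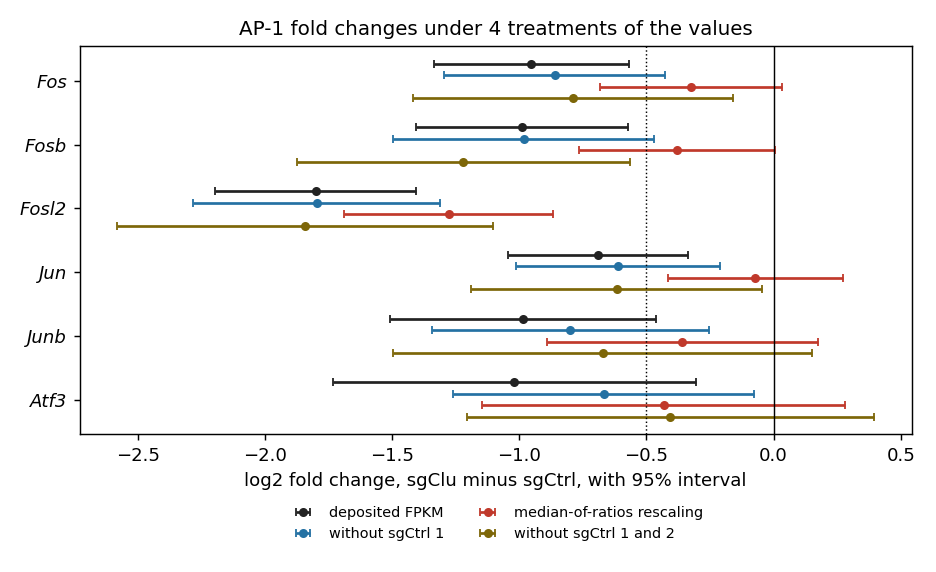
Log2 fold change of each AP-1 gene (horizontal axis, sgClu minus sgCtrl on log2(FPKM + 1), with 95% intervals) on the deposited values, without sgCtrl replicate 1, after median-of-ratios rescaling over the listed genes, and without sgCtrl replicates 1 and 2. The dotted line marks the limit of -0.5, and after rescaling Fosl2 alone has its interval wholly beyond it.

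The makeup of the AP-1 pool was next compared within libraries. No scaling of a library changes the share of a gene in the sum. The sum over the 6 genes was 702.6, 569.8 and 526.0 FPKM in sgCtrl and 249.2, 335.0, 303.6 and 345.4 FPKM in sgClu. Fos made up 49.2% ± 1.73 (SD, n = 3) of this sum in sgCtrl and 49.3% ± 2.83 (SD, n = 4) in sgClu, and these ranges overlapped. Fosl2 made up 1.74% ± 0.272 (SD, n = 3) in sgCtrl and 0.767% ± 0.323 (SD, n = 4) in sgClu, with ranges of 1.47% to 2.02% and 0.515% to 1.23%. Jun made up 10.7% ± 0.690 (SD, n = 3) and 12.8% ± 0.651 (SD, n = 4), with ranges of 10.2% to 11.5% and 12.03% to 13.58%. The share of Fosl2 was thus lower and that of Jun higher in every sgClu library than in any sgCtrl library, while the shares of Fos, Fosb, Junb and Atf3 overlapped. These shares were looked at after the values were known and carry no test.

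On the log2(FPKM + 1) scale, Fosl2 minus the mean of the other 5 members was -3.05, -2.72 and -2.54 in sgCtrl. In sgClu the differences were -3.09, -3.87, -4.00 and -3.61. As 1 is added to each FPKM before the log, these differences are not wholly free of the scaling. Every sgClu library lay below every sgCtrl library, but sgClu replicate 1 and sgCtrl replicate 1 were almost level. The group means were -3.64 ± 0.40 (SD, n = 4) and -2.77 ± 0.26 (SD, n = 3), a difference of -0.87. The exact permutation p was 0.0571 by doubling the smaller tail, the smallest this allows, and 0.114 adjusted over both ratios tested. Counted by the size of the difference, the share of assignments was also 0.0571, against 0.0286 for each single member. The FOS genes (Fos, Fosb and Fosl2) against the JUN genes (Jun and Junb) gave -1.41 ± 0.36 (SD, n = 4) in sgClu and -1.004 ± 0.217 (SD, n = 3) in sgCtrl. These groups overlapped, and the difference of -0.41 did not pass the exact permutation test (p = 0.171, also 0.171 after adjustment).

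**Figure D3:**
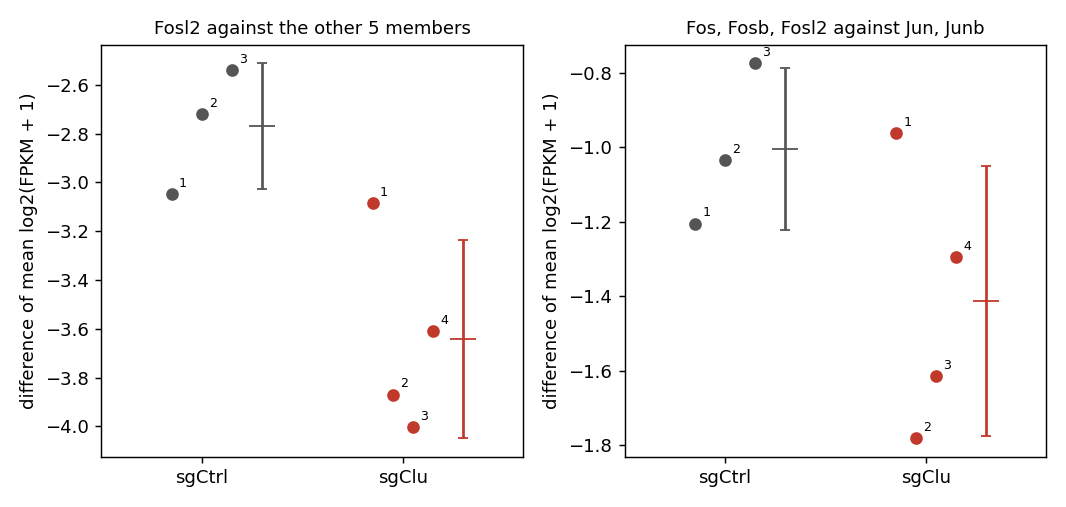
Differences of mean log2(FPKM + 1) (vertical axes) within each library, for Fosl2 against the other 5 members on the left and for the FOS genes against the JUN genes on the right, with libraries marked by replicate number and group means with SD. On the left sgClu replicate 1, at -3.09, sits just below sgCtrl replicate 1, at -3.05, and on the right the groups overlap.

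Within the groups, the members did not all vary alike. Fos, Jun, Junb and Atf3 were all highest in sgCtrl replicate 1 and all lowest in sgClu replicate 1. Fosb and Fosl2 were instead highest in sgCtrl replicate 3, and within sgClu both were highest in replicate 1, the library where the other 4 were lowest. As a description over 7 libraries, deviations from the group means correlated at 0.90 between Jun and Junb, 0.83 between Fos and Jun, and 0.74 between Fosb and Fosl2. Between Jun and Fosl2 the correlation was -0.64, and between Fos and Fosb -0.17. All points of 1 library share its depth and scaling, and the deviations sum to 0 within each group, so these values show only how the libraries lined up.

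**Figure D4:**
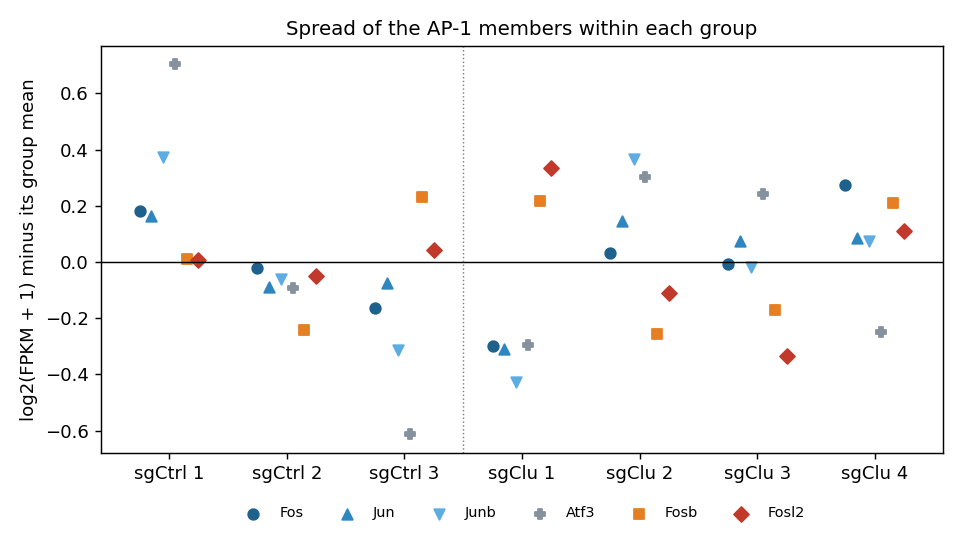
Log2(FPKM + 1) of each AP-1 gene minus its mean in its own group (vertical axis) for the 3 sgCtrl and 4 sgClu libraries. In sgClu replicate 1 Fosb and Fosl2 lie above 0 and Fos, Jun, Junb and Atf3 below it.

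The genes whose profile was most like the mean profile of the 6 members over all 7 libraries were Nr4a1, an immediate early nuclear receptor (Pearson r = 0.989), Cd28 (r = 0.986), Smad7, an inhibitor of TGF-beta signalling (r = 0.985), Cdkn1a, the p21 cell cycle inhibitor (r = 0.980), and Ier5 (r = 0.979). Such values are dominated by the step between the groups. On the deviations from the group means the closest were Klf10, an early response zinc finger factor (r = 0.981), Wdr4 (r = 0.971), Trp53inp1 (r = 0.961), Vcpip1 (r = 0.953) and Gm43672 (r = 0.952). Gm43672 rose, with a log2 fold change of 0.75, so its step between the groups had the opposite sign. Within the groups its libraries lined up with the mean profile of the 6 members. That mean does not stand for each member, as Fosb and Fosl2 varied differently from Jun, Junb and Atf3. Nr4a1 was also at r = 0.928 on the deviations, and Klf10 at r = 0.916 over all libraries. Nr4a1 went from 92.1 to 159.6 FPKM in sgCtrl to 39.2 to 48.2 FPKM in sgClu.

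The wider set of dimer partners was sparse among the listed genes, 2 of 23. Ddit3, which encodes CHOP, a stress-induced partner of C/EBP and ATF proteins, stood at 141.8, 105.1 and 148.6 FPKM in sgCtrl and at 44.2, 55.6, 62.4 and 55.3 FPKM in sgClu, and fell (log2 fold change -1.26, SE 0.18, limma adjusted p = 0.0028). Mafk, a small MAF protein without an activation domain, overlapped between the groups, at 3.93 to 8.34 FPKM and 1.34 to 4.88 FPKM (log2 fold change -0.73, SE 0.33, limma adjusted p = 0.068). It passed the limits in 4 of the 18 alternatives given below, such as without sgCtrl replicate 2 (-0.94) or without sgClu replicate 4 (-0.92). The other JUN and FOS genes are Jund and Fosl1. Fosl1 was not among the listed genes, and Jund was not analysed here.

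Upstream of AP-1, 2 of 42 genes of the MAP kinase cascades and of the SRF and TCF factors were listed. Both fell, beside 50.1% of all listed genes. Gadd45b, which binds and activates a MAP kinase kinase kinase, was at 26.4 to 41.9 FPKM in sgCtrl and 10.8 to 18.5 FPKM in sgClu (log2 fold change -1.11, SE 0.23, limma adjusted p = 0.0072). Mapk12, which encodes p38-gamma, was at 1.59 to 4.70 FPKM and 1.19 to 1.56 FPKM (log2 fold change -0.73, SE 0.25, limma adjusted p = 0.030). In 6 of the 18 alternatives given below Mapk12 did not pass, such as without sgCtrl replicate 1 (-0.70) or without sgCtrl replicate 3 (-0.46). Gadd45b did not pass in 2 of them.

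The feedback inhibitors that shut off MAP kinases, NF-kB or early mRNAs were listed for 9 of 24 genes. Of these 9 of 9 fell, beside 50.1% of all listed genes. Their median log2 fold change was -0.66 against -0.52 over all listed genes. The largest changes were those of Tnfaip3, the A20 inhibitor of NF-kB (-1.34, SE 0.24), Dusp5, a phosphatase of ERK (-0.86, SE 0.18), Nfkbiz (-0.73, SE 0.19) and Nfkbia, the NF-kB inhibitor (-0.72, SE 0.19). Tnfaip3 kept its call in each of the 18 alternatives given below. Dusp5 and Nfkbia lost theirs in 4 each and Nfkbiz in 5.

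Other immediate early genes were listed for 22 of 35 genes. Of these 21 fell and 1, Btg1, did not pass, beside 50.1% of all listed genes that fell. The median log2 fold change was -0.92. The largest changes were in Bhlhe40, a repressor of the clock (-1.75, SE 0.28), the nuclear receptors Nr4a3 (-1.42, SE 0.22) and Nr4a1 (-1.33, SE 0.20), and the clock gene Per1 (-1.39, SE 0.25). Bhlhe40 was at 4.65 to 12.8 FPKM in sgCtrl and 1.55 to 2.14 FPKM in sgClu, so the size of its change, like that of Fosl2, stood above those of the 5 other AP-1 genes.

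Of the genes known as AP-1 targets, 7 of 30 were listed, 6 fell, and Lif did not pass, with a median log2 fold change of -1.09. Plaur, the urokinase receptor, stood at 153.4, 112.1 and 110.2 FPKM in sgCtrl and at 25.7, 21.3, 39.2 and 23.7 FPKM in sgClu. With -2.17 on the log2 scale (SE 0.23, adjusted p = 0.0013 by limma), its change was below that of every AP-1 gene. Vegfa, the angiogenic growth factor, followed at -1.25 (SE 0.16), Cdkn1a at -1.19 (SE 0.18) and Hbegf, a ligand of the EGF receptor, at -1.09 (SE 0.21). A target listed here is a textbook target and was not shown to be bound in these cells. Over all the lists other than the 6 members, 46 of 53 listed genes fell, 1 rose and 6 did not pass, beside the 50.1% of all listed genes that fell. After rescaling by the median of ratios 19 of the 53 were lower past the limits.

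**Figure D5:**
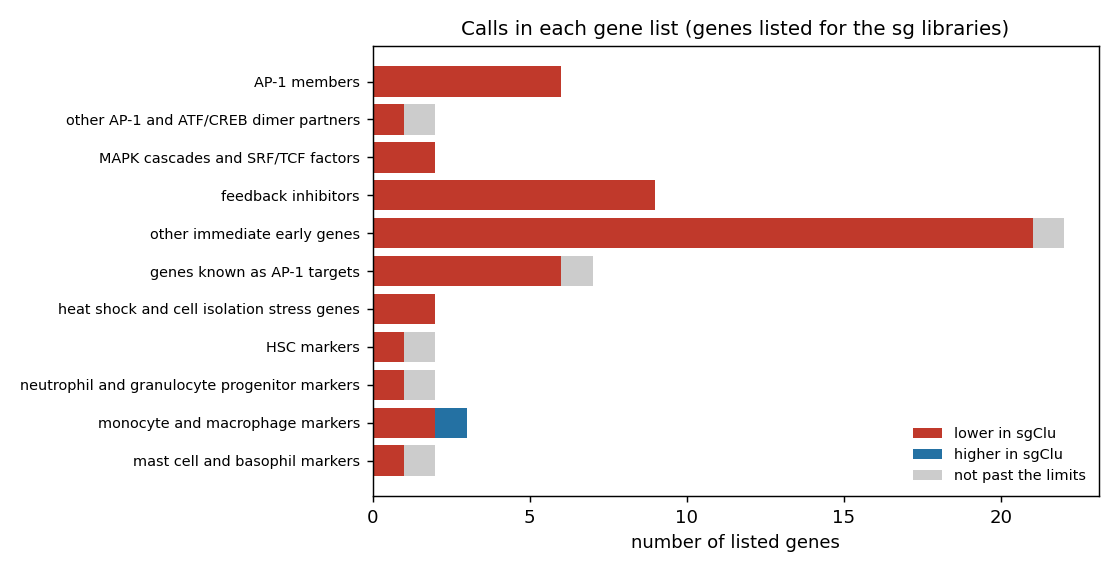
Number of listed genes (horizontal axis) of each gene list that were lower in sgClu, higher in sgClu or not past the limits. The AP-1 members were lower in 6 of 6, the other immediate early genes in 21 of 22 and the AP-1 targets in 6 of 7. Of all 583 listed genes 50.1% were lower.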

How the data were processed

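RNA was amplified with SMART-Seq v4, and libraries were made with Nextera XT. Reads were processed by the authors with TrimGalore, Hisat2 (mm10), FeatureCounts and DESeq2. The deposited values were taken as FPKM, although the headers name no unit and TPM cannot be told apart. They cover 583 genes, a part of those called by the authors on these libraries. Low values showed no steps of whole reads, so the depth is unknown, and the listed values summed to 10841 to 18573 FPKM per library.

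limma (version 3.58.1, R 4.3.3) was run on log2(FPKM + 1) over 583 genes and 7 libraries without covariates. On this scale the changes of low genes are understated. Calls needed p under 0.05 and an absolute log2 fold change over 0.5, and p-values were adjusted over the 583 genes (Benjamini-Hochberg). The fit was tested on simulated data. Single values were compared by exact permutation, doubling the smaller tail (SciPy 1.17.1). As alternatives, the variance was modelled with a trend or gene by gene, libraries were rescaled over the listed genes in 3 ways, genes under 1 FPKM in both group means were dropped, the pseudocount was set to 0.1, the replicate number was a block, calls used adjusted p or a limit of 1, and each library was omitted. The genes named are the members, the listed dimer partners and markers, up to 4 genes with the largest changes past the limits in each other list, and the 5 genes most like the members' mean profile on each of 2 measures; any other was chosen after its values were seen. The members and lists were chosen with earlier results of these data known.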

Additional observations from a re-analysis of the deposited data

Results flagged for a closer look

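Of 44 values checked for a library far from the other 3 in the sgClu group, none of the 6 AP-1 genes, their sum or their ratios stood out, and 2 other genes did. Nfkbiz, the atypical NF-kB inhibitor, was at 6.77 FPKM in sgClu replicate 3 against 9.09 to 9.25 FPKM in the other sgClu libraries, and Fgd5, a marker of HSCs, was at 0.519 FPKM in sgClu replicate 4 against 0.193 to 0.208 FPKM. About 1 in 20 groups passes this check by chance.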

How the results depend on the processing

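All 6 AP-1 genes kept a negative log2 fold change in each of the 18 alternatives run, and so did the median over all listed genes. The other variance models, the filter, adjusted p-values and the limit of 1 leave each fold change as it is, so its sign could not change there. Past the limits, 6 of 6 stayed under either other model of the variance, the filter, the pseudocount of 0.1, adjusted p-values and each library left out in turn. Leaving out 1 library gave -1.04 to -0.85 for Fos, -1.11 to -0.87 for Fosb, -1.91 to -1.69 for Fosl2, -0.74 to -0.59 for Jun, -1.14 to -0.80 for Junb and -1.33 to -0.67 for Atf3. The lower count of all listed genes then ran from 241 to 295 and the higher count from 69 to 98. The ratio of Fosl2 to the other members ran from -1.06 to -0.75, and that of FOS to JUN genes from -0.56 to -0.29.

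Rescaling over the listed genes left 1 member past the limits in each of 3 ways. The values by median of ratios, by a trimmed mean of ratios and by column totals were -0.32, -0.31 and -0.37 for Fos, -0.38, -0.36 and -0.42 for Fosb, -0.072, -0.054 and -0.115 for Jun, -0.36, -0.34 and -0.40 for Junb, and -0.43, -0.42 and -0.47 for Atf3. Fosl2 stayed called at -1.28, -1.27 and -1.32. All listed genes called lower numbered 59, 56 and 70, and 19 of the other listed list genes were lower by median of ratios. Klf10 turned to 0.083, 0.1005 and 0.041, and Vcpip1 to 0.056, 0.066 and 0.028.

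A log2 fold change limit of 1 left 2 members, Fosl2 and Atf3, without Fos (-0.95), Fosb (-0.99), Jun (-0.69) and Junb (-0.99), and 69 genes lower and 7 higher. Without sgCtrl replicates 1 and 2, Junb (-0.67) and Atf3 (-0.41) lost their calls and S100a8 turned to 0.18.

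The replicate block left 5 members past the limits, with Atf3 at -0.94 (limma adjusted p = 0.086), and 270 genes lower and 65 higher. Same-numbered libraries correlated at -0.10, 0.07 and 0.06 in their deviations, so the numbers were not read as pairs. Across all named genes that are no members, 529 of the refits gave the same call and direction, 77 lost a call, 16 gained one and 7 changed sign. The unknown depth, 7 libraries and the earlier selection of the genes limit every value.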

Other observations

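None of the 6 AP-1 genes was among the 1043 genes listed for transplanted old against young HSCs, and 2 of their possible partners were. The paper reports the same number of genes as upregulated in transplanted old over young HSCs. Of these 1043 genes 1005 had a higher mean in the old libraries. The list thus holds no call of a higher level with age for the AP-1 genes, and does not show whether they were lower with age. Ddit3, which fell with the Clu guides, stood at 138.4 to 200.8 FPKM in the 4 transplanted old libraries and at 79.2 to 88.3 FPKM in the 3 transplanted young libraries. Crem, a cyclic AMP response factor, stood at 9.93 to 22.2 FPKM and 6.01 to 10.9 FPKM, with overlap. These values come from a separate table and were not set against the sgClu and sgCtrl values.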
